A study of Homo sapiens with 6 samples.

Results

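The genes considered here encode the parts of tight junctions and desmosomes, with the polarity proteins that place these contacts in the membrane and several regulators of epithelial identity. The 49 genes were chosen by name, with earlier results of these data known. They comprise 14 claudins, 10 other tight junction proteins, 12 desmosome and plakin genes, 6 polarity genes, and 7 epithelial regulators grouped with *EXPH5*. All 49 were found among the 62703 genes of the expression table. Transcripts were profiled by RNA-seq in PANC-1 cells, a line from a human pancreatic ductal carcinoma, to ask how the transcriptome differs once the super-enhancer DKK1-SE has lost its constituent e1. The DKK1-SE-/- (KO) cells are a single subclone in which CRISPR/Cas9 removed e1 from both alleles, and the DKK1-SE+/+ (WT) cells are the controls; the sources used here do not say whether these were cloned too. Each group had 3 samples that the labels call biological replicates. Because the KO cells are 1 clone, the deletion and the clone cannot be told apart, and the p-values measure only the spread between these samples.

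Epithelial cells seal the space between neighbours with tight junctions, in which claudin strands set how tight and how ion-selective the barrier is and scaffold proteins anchor the strands to actin. Desmosomes lie below them and carry mechanical load: desmoglein and desmocollin cadherins bind the neighbouring cell, and plakoglobin, plakophilins and desmoplakin join them to keratin filaments. Carcinoma cells of the pancreatic duct keep these structures to varying degrees, and PANC-1 is usually described as a poorly differentiated line with mesenchymal traits.

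The libraries held 21822314, 16475810 and 18803154 expected counts in WT replicates 1 to 3, and 17359835, 20098086 and 17804764 in KO replicates 1 to 3. *DKK1*, the Wnt antagonist that DKK1-SE is named for, served as a check of the genotype. It stood at 229, 246 and 199 TPM in the WT samples (TPM is transcript abundance scaled for transcript length and library size) and at 66.8, 79.8 and 82.7 in the KO samples. Every KO value lay below every WT value, and the log2 fold change (KO minus WT) was -1.45 ± 0.11 (standard error; adjusted p = 6.16e-06, edgeR's quasi-likelihood test with Benjamini-Hochberg adjustment; exact two-sided permutation p of TPM = 0.1, the smallest that 3 against 3 samples allow).

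Junction genes moved in both directions. A gene counts as called below when its adjusted p from edgeR's quasi-likelihood test is under 0.05, and as up- or down-regulated (DEG) when its unadjusted p is under 0.05 and its log2 fold change is at least 1.2 in size. Of the 49 members, 34 had enough counts to be tested. Of these, 19 were called (55.9%, against 39.3% of all 15179 tested genes), 9 of them higher (26.5%, against 19.8%) and 10 lower (29.4%, against 19.5%). In either limma-trend fit on TPM, 4 were called higher and 8 lower. The share of all tested genes called in those fits is not given here. DEGs numbered 8 (23.5%, against 8.66%): *CLDN1*, *DSC3* and *PKP1* were up-regulated, as were 4.96% of all tested genes, and *CLDN7*, *CLDN10*, *DSC2*, *PKP2* and *EXPH5* were down-regulated, as were 3.7%. Read as a linear fold of 1.2 instead, the same limit gave 10 up-regulated and 11 down-regulated members, beside 24.3% and 23.3% of all tested genes. The TPM values of the groups did not overlap for 19 members, 7 higher and 12 lower in KO, and for 44.2% of all tested genes (17.5% higher and 26.7% lower). In CPM (counts over library size) scaled by TMM, the library scaling of the main fit, 11 members lay higher and 12 lower, as did 26.2% and 25.7% of all tested genes (51.9% in all). The median log2 fold change was -0.10 over the tested members and 0.03 over all tested genes, and the median size was 0.47 against 0.39. *CLDN10*, *DSC3* and *PKP1* passed the filter on low counts through 1 group only, so that a member of this kind had to differ in order to be tested. The members were also chosen with earlier results of these data known, so their shares beside all tested genes are not independent of that choice. In bulk samples, fewer cells with a transcript and less of it per cell cannot be told apart.

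**Figure D1:**
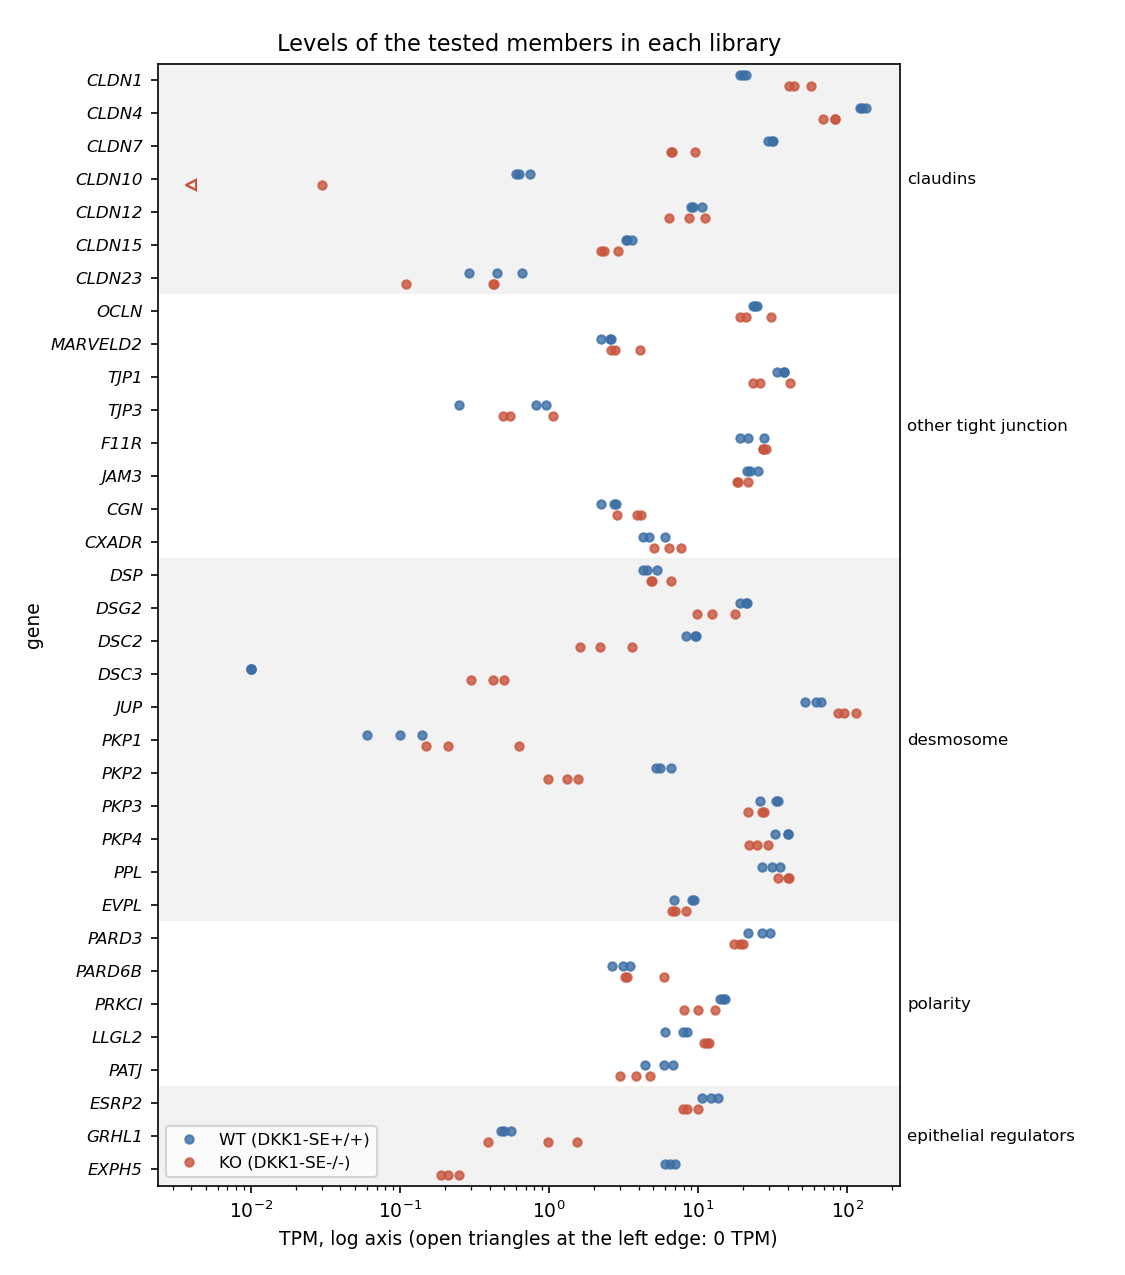
TPM (horizontal log axis) of the 34 tested members in each of the 3 WT and 3 KO libraries, 1 point per library, grouped by role. CLDN7, CLDN10, DSC2, PKP2 and EXPH5 lie clearly to the left in KO, CLDN1 and DSC3 to the right, and most other members share a range; an open triangle marks 0 TPM.

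The remaining 15 members were at the edge of detection in both genotypes, with no more than 9 counts in any library, and they were not tested. They comprise the claudin genes *CLDN2*, *CLDN3*, *CLDN6*, *CLDN11*, *CLDN14*, *CLDN16* and *CLDN18*, the tight junction genes *MARVELD3* and *JAM2*, the desmoglein *DSG3*, the polarity gene *CRB3*, and the regulators *ESRP1*, *GRHL2*, *OVOL1* and *OVOL2*. *CLDN16* had no count in any library. Differences in these genes were not detectable at this depth.

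Among claudins, a few genes carried nearly all of the transcripts, and their balance differed between the genotypes. *CLDN4*, which encodes a barrier claudin and receptor of a clostridial enterotoxin, was the most abundant, at 123, 125 and 134 TPM in WT and 82.9, 82.8 and 68.4 TPM in KO. All 3 KO samples lay below all WT samples, and the log2 fold change was -0.53 ± 0.13 (adjusted p = 0.00861, edgeR's quasi-likelihood test with Benjamini-Hochberg adjustment). *CLDN1*, whose product seals the paracellular space and is required for the skin barrier, stood at 20.1, 20.8 and 19.2 TPM in WT and at 40.8, 44.1 and 56.8 TPM in KO. It was higher in every KO sample and rose 2.57-fold (log2 fold change 1.36 ± 0.11; adjusted p = 9.02e-06 by the same test). *CLDN7*, a claudin that also lies along the basolateral membrane and binds EpCAM, measured 29.5, 31.6 and 31.5 TPM in WT and 6.66, 9.51 and 6.61 TPM in KO. The groups were far apart, and *CLDN7* fell 3.77-fold (log2 fold change -1.92 ± 0.18; edgeR adjusted p = 2.29e-05). *CLDN10*, which encodes pore-forming claudins, was a minor gene in WT at 0.63, 0.60 and 0.75 TPM and was nearly absent in KO at 0.03, 0 and 0 TPM. Its WT libraries together held 65 counts and its KO libraries 1, a ratio of 59.8 per library size with a 95% counting interval from 10.4 to 2400 (edgeR adjusted p = 2.62e-04), an interval that covers counting error only.

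The 3 other tested claudins were not called. *CLDN12* stood between 9.03 and 10.7 TPM in WT and between 6.42 and 11.2 TPM in KO, with overlapping groups. *CLDN15*, which encodes a cation-pore claudin of the intestine, was at 3.29 to 3.62 TPM in WT and 2.22 to 2.92 TPM in KO. Its TPM values did not overlap, yet its log2 fold change from counts was -0.21 ± 0.22 (edgeR adjusted p = 0.493), from -0.38 without KO replicate 1 to -0.13 without KO replicate 3, and -0.50 with an offset for GC content. *CLDN23* stayed under 1 TPM in every library and overlapped. The TPM and count scales differ a little as a whole: the median over all tested genes was -0.08 for log2(TPM + 1) in limma-trend and 0.03 for counts.

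Summed over the 14 genes, claudin transcripts made up 193.0 ± 5.56 TPM in WT and 144.9 ± 4.0 TPM in KO (mean ± SD, n = 3). *CLDN4* accounted for 65.9 ± 1.31% of that sum in WT and 53.9 ± 6.25% in KO. The share of *CLDN1* was 10.4 ± 0.68% in WT and 32.6 ± 5.56% in KO, while that of *CLDN7* was 16.0 ± 0.44% and 5.23 ± 1.03%. In WT the order of levels was *CLDN4*, *CLDN7*, *CLDN1*, *CLDN12*, *CLDN15*, each apart from the next. In KO it was *CLDN4*, *CLDN1*, then *CLDN12* and *CLDN7*, whose values overlapped, then *CLDN15*. The ratio of *CLDN4* to *CLDN1* in TPM was 6.09, 5.98 and 7.01 in the WT samples and 2.03, 1.88 and 1.2 in the KO samples, so that the 2 genes were nearest in KO replicate 3.

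**Figure D2:**
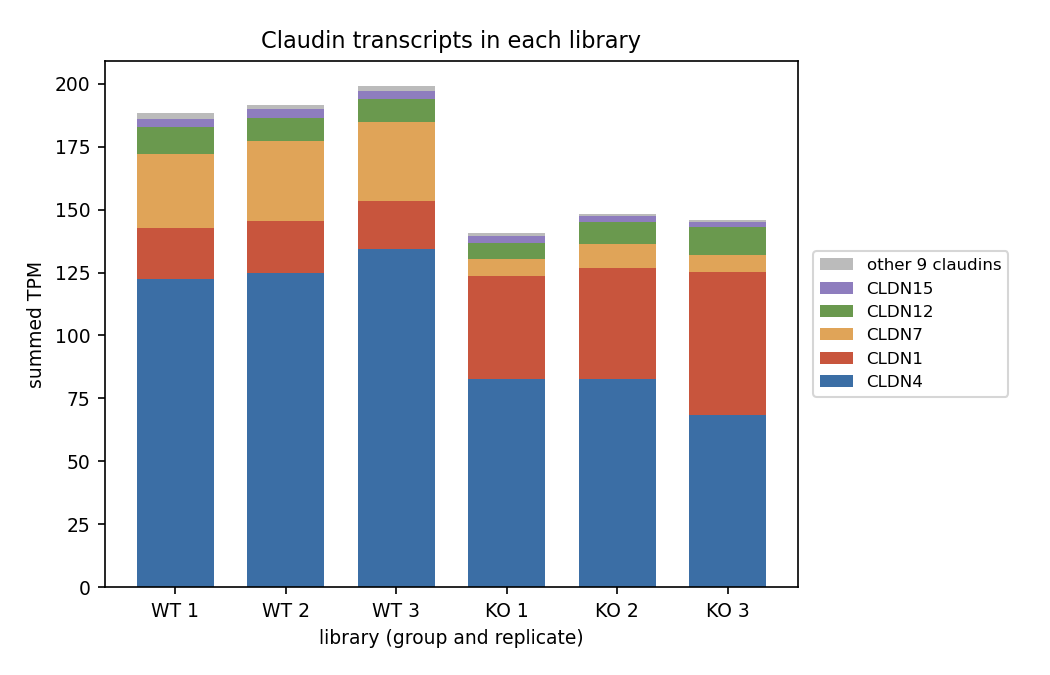
Summed TPM of the 14 claudin genes in each library (bars start at 0; horizontal axis: library), split by gene. The KO bars are shorter (140.5 to 148.4 TPM, against 188.3 to 199.1 in WT), with a wider CLDN1 segment and narrower CLDN4 and CLDN7 segments.

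The promoters of *CLDN1* and *CLDN7* are shown because these claudins moved in opposite directions. RefSeq promoters (GRCh38.p14, 250 bases before to 50 after the annotated start) were matched for 31 of the 49 members and searched on both strands for the E-box CAGGTG, a letter pattern bound by ZEB and SNAI repressors, and for the Grainyhead-like pattern AACCGGTT with its wider form AACNGGTT, which includes it. The sequences below are the 250 upstream bases, 5′ to 3′ on the strand of the gene, and capitals would mark a match. That of *CLDN1* lies at chr3:190322447-190322696 (minus strand), and that of *CLDN7* at chr17:7263214-7263463 (minus strand).
CLDN1: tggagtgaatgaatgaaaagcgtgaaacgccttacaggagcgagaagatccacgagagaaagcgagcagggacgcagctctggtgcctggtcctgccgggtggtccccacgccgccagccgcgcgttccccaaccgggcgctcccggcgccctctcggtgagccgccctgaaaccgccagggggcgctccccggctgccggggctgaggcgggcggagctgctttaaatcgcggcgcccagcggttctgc
CLDN7: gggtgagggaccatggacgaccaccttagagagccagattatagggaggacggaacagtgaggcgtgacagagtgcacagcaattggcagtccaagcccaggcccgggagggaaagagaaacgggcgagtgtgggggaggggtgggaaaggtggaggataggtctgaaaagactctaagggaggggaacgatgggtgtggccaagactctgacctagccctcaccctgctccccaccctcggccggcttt
Neither holds any of the patterns. The *CLDN1* stretch has 68.8% G and C with 28 CpG dinucleotides, and the *CLDN7* stretch has 60.4% with 9. CAGGTG was found in 10 of the 31 member promoters, and in 20.6% of all 35097 promoters. It was in 3 of the 8 matched promoters of members called lower, in 0 of the 6 of members called higher, in 3 of the 8 of tested members not called and in 4 of the 9 of members not tested. AACCGGTT was in none of the 31 (0.134% of all promoters), and AACNGGTT in 1, that of *CGN* (1.73% of all). These are matches of letters and say nothing about binding.

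Among the other tight junction genes, 2 of 8 tested genes were called by edgeR's quasi-likelihood test (25%, against 39.3% of all tested genes). Both were higher (against 19.8%), 0 were lower (against 19.5%), and none was a DEG (against 8.66%). At an unadjusted p of 0.05, and by DESeq2 or limma-trend, 0 were lower as well. *TJP1*, which encodes the scaffold ZO-1 that ties claudins to actin, had the highest mean TPM of the class in each group, with 33.7, 38.0 and 37.4 TPM in WT and 23.2, 25.9 and 41.3 TPM in KO; *F11R* was above it in KO replicates 1 and 2. KO replicate 3 lay above all WT samples and the other KO samples below them, and the log2 fold change was -0.12 ± 0.15 (edgeR adjusted p = 0.532). Without KO replicate 3 *TJP1* was called lower (-0.35, adjusted p = 0.00638), while with an offset for GC content its log2 fold change was 0.15; its adjusted p over all alternatives ran from 0.00638 to 0.912. *OCLN*, encoding the strand protein occludin, showed the same layout, with 23.5 to 24.8 TPM in WT and 21.0, 19.1 and 30.9 TPM in KO (0.08 ± 0.15, edgeR adjusted p = 0.712). It was called higher with the GC offset (0.42, adjusted p = 0.00333; range over alternatives 0.00333 to 0.963), and its sign turned without KO replicate 3 (-0.15).

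*CGN*, encoding cingulin, which links ZO proteins to actomyosin, measured 2.83, 2.25 and 2.72 TPM in WT and 4.17, 2.88 and 3.87 TPM in KO. All KO values were higher, and *CGN* rose by 0.63 ± 0.15 on the log2 scale (edgeR adjusted p = 0.0062); the call was lost with the GC offset (0.37, adjusted p = 0.0518, up to 0.184 over alternatives). *MARVELD2*, encoding tricellulin of the tricellular contacts, rose by 0.45 ± 0.16 (edgeR adjusted p = 0.0457). Its call was lost in 13 of 17 alternatives, including the loss of any 1 library, with adjusted p up to 0.363, and without KO replicate 3 the log2 fold change was 0.29. The adhesion molecules *F11R* (JAM-A), *JAM3* and *CXADR*, the scaffold gene *TJP3* and *OCLN* had log2 fold changes from -0.08 to 0.32 and were not called. *F11R* was called higher only without KO replicate 3 (0.25, adjusted p = 0.0439, up to 0.391), and *CXADR* only with the GC offset (0.54, adjusted p = 0.00874, up to 0.859). Without KO replicate 3 the log2 fold change of *CXADR* was 0.03. The class summed to 117.4 ± 1.48 TPM in WT and 115.1 ± 20.6 TPM in KO. KO replicates 1 and 2 (103.0 and 103.4 TPM) lay below all WT samples, and KO replicate 3 (138.9 TPM) above them.

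**Figure D3:**
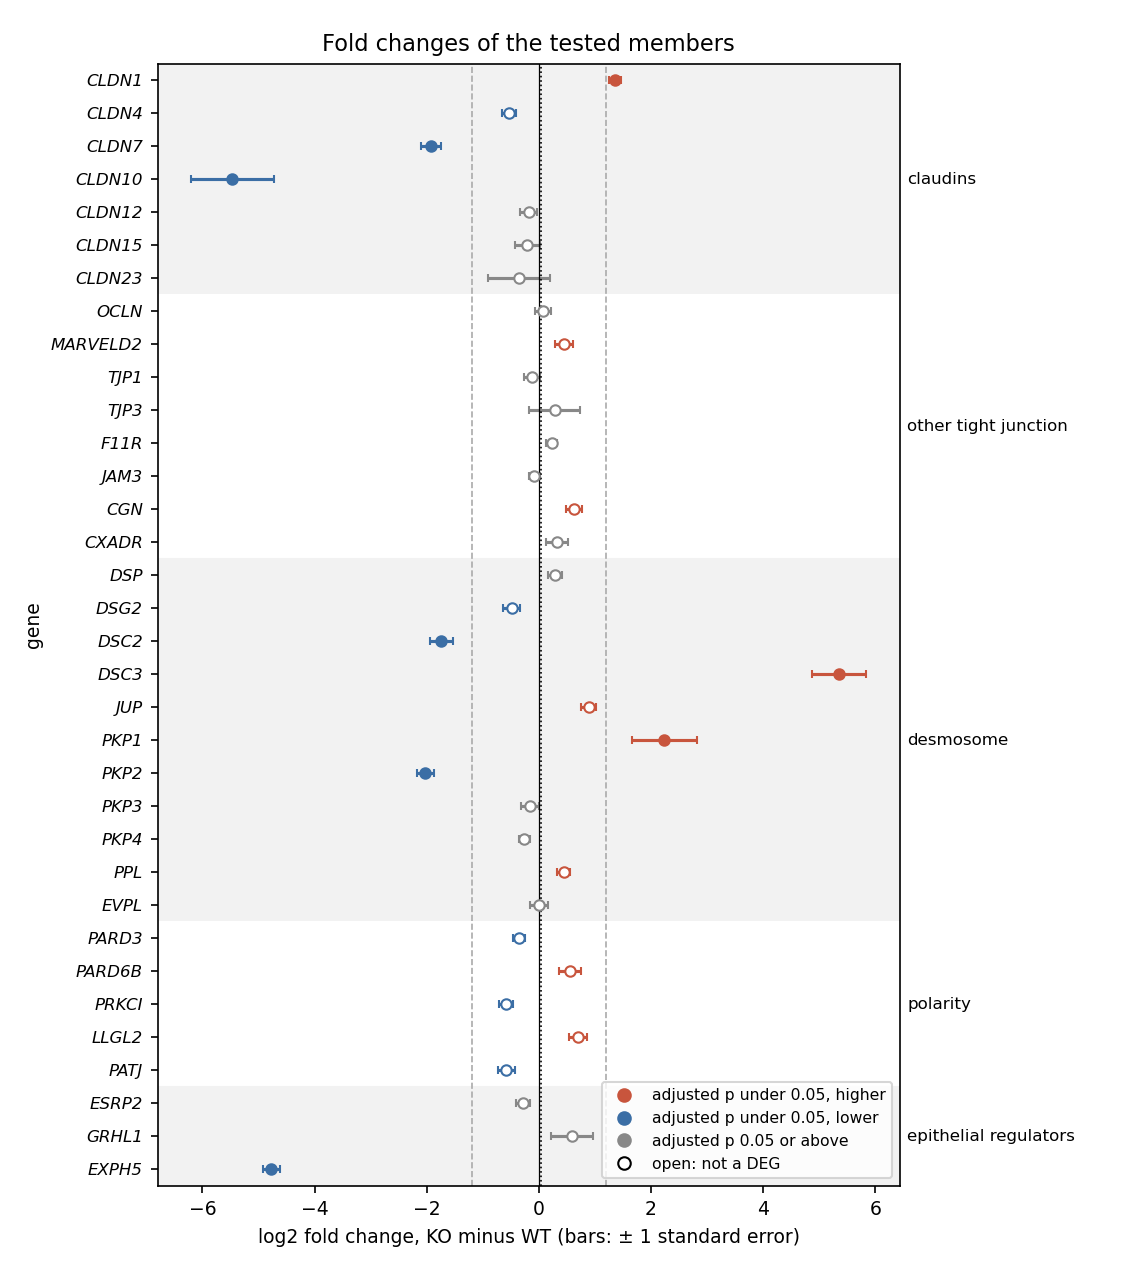
Log2 fold change (KO minus WT, bars ± 1 standard error, edgeR) of the 34 tested members by role. Filled points are DEGs, which lie beyond the dashed lines at -1.2 and 1.2, and the dotted line is the median of all tested genes (0.03). The 8 filled points fall among claudins, desmosome genes and EXPH5, and none among other tight junction or polarity genes.

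Desmosome genes moved in both directions. Of 11 tested genes, 4 were called higher and 3 lower (63.6%, against 39.3% of all tested genes), and 4 were DEGs (36.4%, against 8.66%). *DSC3* and *PKP1*, both DEGs called higher, passed the filter on low counts through the KO group only. They had to differ in order to be tested, which raises these shares. The desmocollin *DSC2*, the form found in simple epithelia and heart, stood at 8.32, 9.61 and 9.64 TPM in WT and at 1.62, 2.20 and 3.59 TPM in KO. Each KO value was under each WT value, and *DSC2* fell 3.34-fold (log2 fold change -1.74 ± 0.21; adjusted p = 1.16e-04, edgeR's quasi-likelihood test with Benjamini-Hochberg adjustment). *DSC3*, a desmocollin of the lower layers of stratified epithelia, was at 0.01 TPM in each WT sample and at 0.30, 0.42 and 0.50 TPM in KO. About 1 count per WT library became 30.9, 47.8 and 48.96 counts. The ratio per library size was 46.4, with a 95% counting interval from 15.5 to 228 that covers counting error only (edgeR adjusted p = 1.88e-05). Even so, *DSC3* remained the lesser form in KO: *DSC2* exceeded it 5.40, 5.24 and 7.18 times in TPM.

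The promoters of both desmocollins are shown because the genes lie 16.0 kb apart on chromosome 18 and moved in opposite directions. The *DSC2* stretch is at chr18:31102422-31102671 and the *DSC3* stretch at chr18:31042743-31042992, both on the minus strand, with the same build and window, and capitals mark CAGGTG.
DSC2: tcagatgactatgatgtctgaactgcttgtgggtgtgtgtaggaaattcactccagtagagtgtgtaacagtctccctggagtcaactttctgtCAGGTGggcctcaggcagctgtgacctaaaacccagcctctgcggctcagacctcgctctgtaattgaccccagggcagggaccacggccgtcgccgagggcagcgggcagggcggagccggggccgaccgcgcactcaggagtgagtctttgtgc
DSC3: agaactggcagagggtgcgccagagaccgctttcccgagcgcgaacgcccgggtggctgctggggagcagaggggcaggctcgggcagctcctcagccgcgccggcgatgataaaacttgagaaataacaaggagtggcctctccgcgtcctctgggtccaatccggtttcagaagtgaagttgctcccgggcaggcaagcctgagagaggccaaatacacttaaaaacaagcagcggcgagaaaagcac
The *DSC2* promoter holds 1 CAGGTG, starting 156 bases before the annotated start, and the *DSC3* promoter holds none of the patterns searched. Tested non-member genes within 5 Mb of this pair had a median log2 fold change of -0.20. The desmoglein *DSG2*, 395.7 kb from *DSC2*, had 21.0, 21.2 and 19.0 TPM in WT and 9.84, 12.5 and 17.6 TPM in KO. The groups were apart, although KO replicate 3 came close to WT, and *DSG2* fell by 0.49 on the log2 scale (SE 0.15; edgeR adjusted p = 0.0234). With the GC offset the value was -0.04 (adjusted p = 0.652). The call was also lost without WT replicate 1, WT replicate 2 or KO replicate 2 (adjusted p = 0.0554, 0.0821 and 0.0693; up to 0.75 over all alternatives).

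Plakophilins bind the cadherin tails and cluster them. *PKP2*, the plakophilin of simple epithelia and heart muscle, measured 5.22, 5.57 and 6.54 TPM in WT and 0.99, 1.57 and 1.33 TPM in KO. No KO sample came near the WT range, and *PKP2* fell 4.06-fold (log2 fold change -2.02 ± 0.16; edgeR adjusted p = 6.75e-06). *PKP1*, typical of the upper layers of stratified epithelia, was low throughout, at 0.06, 0.14 and 0.10 TPM in WT and 0.63, 0.15 and 0.21 TPM in KO. KO replicate 1 stood apart, and KO replicate 2 was barely above the highest WT sample. The log2 fold change of *PKP1* was 2.23 ± 0.58 (edgeR adjusted p = 0.0108), but without KO replicate 1 it was 1.49 and no longer called (adjusted p = 0.0638, up to 0.21 over all alternatives). The markers of stratified epithelium *KRT5*, *KRT14* and *TP63* summed to 0.04, 0.08 and 0.24 TPM in WT and 0.06, 0 and 0.37 TPM in KO, with *TP63* the most abundant, *KRT14* at 0 counts and at most 7 counts for any of the 3 in any library.

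*PKP3*, the broadly expressed plakophilin, stood at 26.0 to 34.3 TPM in WT and 21.5 to 27.5 TPM in KO, and *PKP4*, which also sits in adherens junctions, at 32.8 to 40.3 and 22.1 to 29.6 TPM. Neither was called in counts (log2 fold changes -0.16 and -0.26; edgeR adjusted p = 0.455 and 0.0628), and that of *PKP3* ran from -0.34 without KO replicate 1 to -0.02 without KO replicate 3. Both were called lower with the GC offset (-0.56, adjusted p = 1.12e-04, up to 0.902 over the alternatives of *PKP3*; -0.37, adjusted p = 0.00491, up to 0.213 over those of *PKP4*), and *PKP4* also without KO replicate 3 (adjusted p = 0.00779), with library size alone (0.0327) and in both limma-trend fits (0.0213 and 0.0215). The ratio of *PKP3* to *PKP2* in TPM was 4.99, 5.96 and 5.25 in WT and 27.3, 17.5 and 16.1 in KO.

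*JUP*, encoding plakoglobin, the armadillo protein that joins both desmosomal and classical cadherins to their partners, was the most abundant gene of the class. It stood at 52.0, 62.1 and 66.7 TPM in WT and at 114.4, 87.3 and 94.5 TPM in KO. All KO samples were higher, and *JUP* rose 1.85-fold (log2 fold change 0.89 ± 0.13; edgeR adjusted p = 5.18e-04). Its share of desmosome TPM was 28.8 ± 1.68% in WT and 45.1 ± 3.92% in KO. Among the plakins, which reach the keratin filaments, *PPL* rose by 0.44 ± 0.12 on the log2 scale (edgeR adjusted p = 0.0145), with overlapping TPM. That call was lost with the GC offset (0.22, adjusted p = 0.0938) and without WT replicate 1 or WT replicate 2 (adjusted p = 0.118 and 0.0655; up to 0.126 over all alternatives). *DSP*, encoding desmoplakin, was at 4.26 to 5.29 TPM in WT and 4.83 to 6.60 TPM in KO (0.28 ± 0.13, edgeR adjusted p = 0.0989; 0.17 without KO replicate 3), and *EVPL*, encoding envoplakin, had a log2 fold change of 0.00 ± 0.16. With the GC offset *DSP* was called higher (0.27, adjusted p = 0.0414, up to 0.517) and *EVPL* lower (-0.36, adjusted p = 0.0325, up to 0.987). Summed desmosome transcripts amounted to 209.0 ± 15.7 TPM in WT and 218.5 ± 14.5 TPM in KO, a sum over the 12 members that leaves out *PERP*, described further on.

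**Figure D4:**
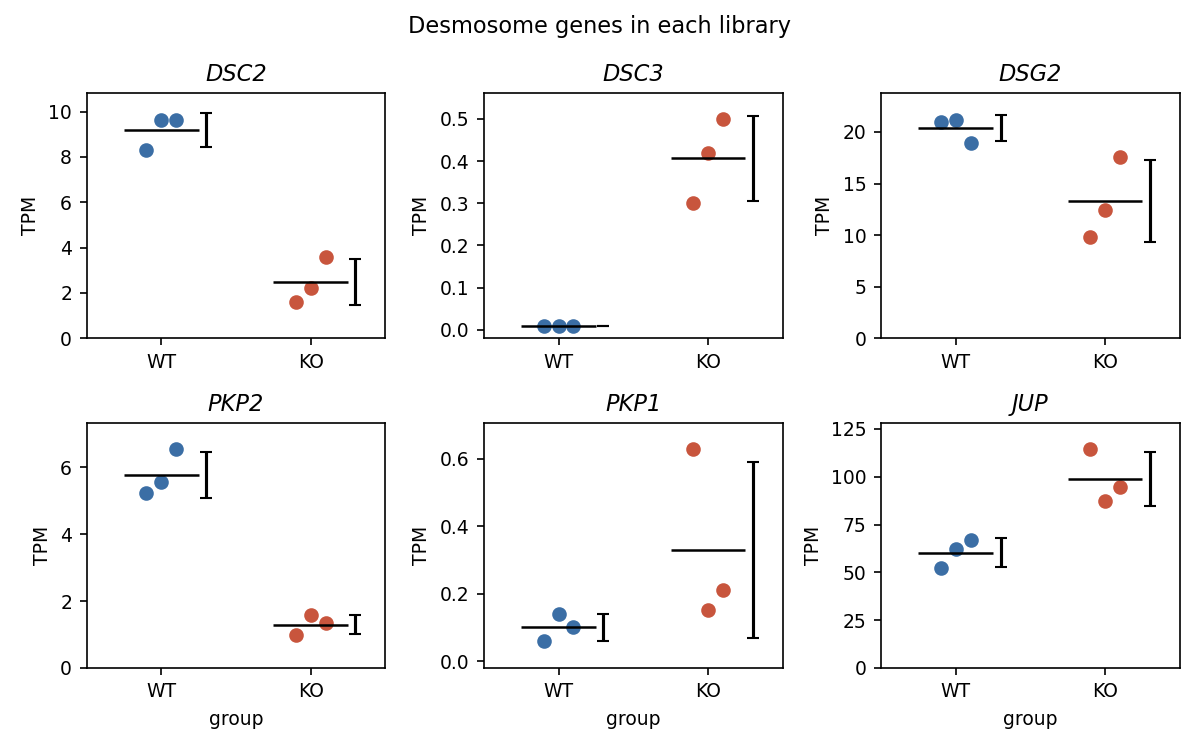
TPM (vertical axes, a separate scale for each gene) of 6 desmosome genes in the WT and KO libraries; points are libraries, lines are group means and bars ± 1 SD (n = 3). DSC2, DSG2 and PKP2 are lower in KO, DSC3, PKP1 and JUP higher, and for PKP1 a single KO library holds the high value.

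All 5 tested polarity genes were called, 2 higher and 3 lower, where 39.3% of all tested genes were called, and none was a DEG. The TPM values of *PARD6B* and *PATJ* overlapped between the groups. *PARD3*, the scaffold of the apical PAR complex, had 21.6, 26.8 and 30.4 TPM in WT and 19.2, 17.5 and 20.2 TPM in KO. The groups were apart by a small margin, and *PARD3* fell by 0.35 on the log2 scale (SE 0.10; edgeR adjusted p = 0.0189). Its partners differed in direction: *PRKCI*, the atypical protein kinase C, fell by 0.58 (SE 0.13; edgeR adjusted p = 0.00525), and *PARD6B*, its adaptor, rose by 0.56 (SE 0.20; edgeR adjusted p = 0.0439). *LLGL2*, a basolateral protein that opposes the PAR complex, rose by 0.70 (SE 0.16; edgeR adjusted p = 0.00649), from 8.40, 6.01 and 7.94 TPM in WT to 11.8, 11.5 and 10.9 TPM in KO. All KO samples lay above all WT samples. *PATJ*, a scaffold of the Crumbs complex, fell by 0.58 (SE 0.16; edgeR adjusted p = 0.0145). Only *LLGL2* kept its call in every alternative, at 0.34 with the GC offset (adjusted p = 0.0263, up to 0.0426). *PRKCI* lost its call with the GC offset (-0.10, adjusted p = 0.341, up to 0.439). *PARD3* lost its call with a replicate block (-0.35, edgeR adjusted p = 0.0828). Leaving out 1 library ended the call of *PARD3* (WT replicate 2 or 3 or KO replicate 2; adjusted p = 0.0789, 0.0908 and 0.0776, up to 0.0908; also lost in both limma-trend fits, 0.0537 and 0.0531), of *PATJ* (KO replicate 2; 0.0642, up to 0.134) and of *PARD6B* (any WT replicate or KO replicate 3; 0.174, 0.065, 0.0942 and 0.14, up to 0.362, with a log2 fold change of 0.28 without KO replicate 3).

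Of the epithelial regulators, 3 of 7 were tested. *EXPH5*, encoding a Rab27 effector of vesicle traffic whose loss causes skin fragility, was at 5.97, 7.02 and 6.45 TPM in WT and 0.19, 0.21 and 0.25 TPM in KO. The groups were separated by a wide gap with little spread in either, and *EXPH5* fell 27.2-fold (log2 fold change -4.77 ± 0.15; edgeR adjusted p = 5.76e-08), the smallest p-value among the members. It still had 27, 36 and 35.0 counts in the KO libraries. *ESRP2*, a regulator of epithelial splicing, stood at 13.7, 10.6 and 12.3 TPM in WT and 9.95, 7.97 and 8.41 TPM in KO. All KO values were lower, but the log2 fold change of -0.28 ± 0.12 did not pass (edgeR adjusted p = 0.0969); it passed with the GC offset (-0.51, adjusted p = 0.00112), with library size alone (-0.35, adjusted p = 0.0381) and without KO replicate 1 (-0.38, adjusted p = 0.0332; up to 0.26 over alternatives). *GRHL1* overlapped between the groups (edgeR adjusted p = 0.23). Its relative *GRHL2* and the repressor-type regulators *OVOL1* and *OVOL2* had at most 3 counts in any library.

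The promoter of *EXPH5* is shown as that of the member with the smallest p-value. Its 250 upstream bases lie at chr11:108593769-108594018 on the minus strand, with the same build and window.
EXPH5: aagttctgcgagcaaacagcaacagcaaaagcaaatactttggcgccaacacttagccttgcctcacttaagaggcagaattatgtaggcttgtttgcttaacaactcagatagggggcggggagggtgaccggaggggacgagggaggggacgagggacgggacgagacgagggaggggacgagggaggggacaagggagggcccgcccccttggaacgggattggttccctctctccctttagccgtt
It holds none of the patterns searched, and 58.0% of its bases are G or C.

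Fold changes in these libraries varied with base composition. Across the tested genes, log2 fold change and the GC content of the transcripts had a Spearman rho of 0.41, and across the 34 tested members 0.25; the genes share the same 6 libraries and are not independent. Members called higher had a median GC content of 54.7% and members called lower 43.5%, against 49.8% for all tested genes. With an offset for GC content in each library, 15 of the 19 called members kept their call and direction, all 8 DEGs among them, and *CGN*, *DSG2*, *PPL* and *PRKCI* lost it. With the offset *OCLN*, *CXADR* and *DSP* were also called higher and *PKP3*, *PKP4*, *EVPL* and *ESRP2* lower, for 10 members higher and 12 lower in all. The share of all tested genes called with the offset is not given here.

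Fold changes also varied along chromosomes. For each tested member, the median log2 fold change of the tested non-member genes within 5 Mb ran from -0.63 to 0.62. Of the 19 called members, 3 lay within 0.1 of that median. *PARD3*, on chromosome 10 with *DKK1*, had -0.35, as did its 27 neighbours at the median, of which 13 were called lower and none higher. *PARD6B* had 0.56 beside a median of 0.55 over 58 neighbours, and *PPL* 0.44 beside 0.48 over 185. The 8 DEGs lay at least 1.42 from the median of their neighbours. They were chosen for a log2 fold change of at least 1.2 in size, so that choice largely set this distance. *EXPH5* had the lowest surroundings of these 8, with a median of -0.47 and 20 of 41 neighbours called lower, and *CLDN7* the highest, with 0.16. The part of base composition, chromosomal surroundings or clone in any of these differences was not tested.

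**Figure D5:**
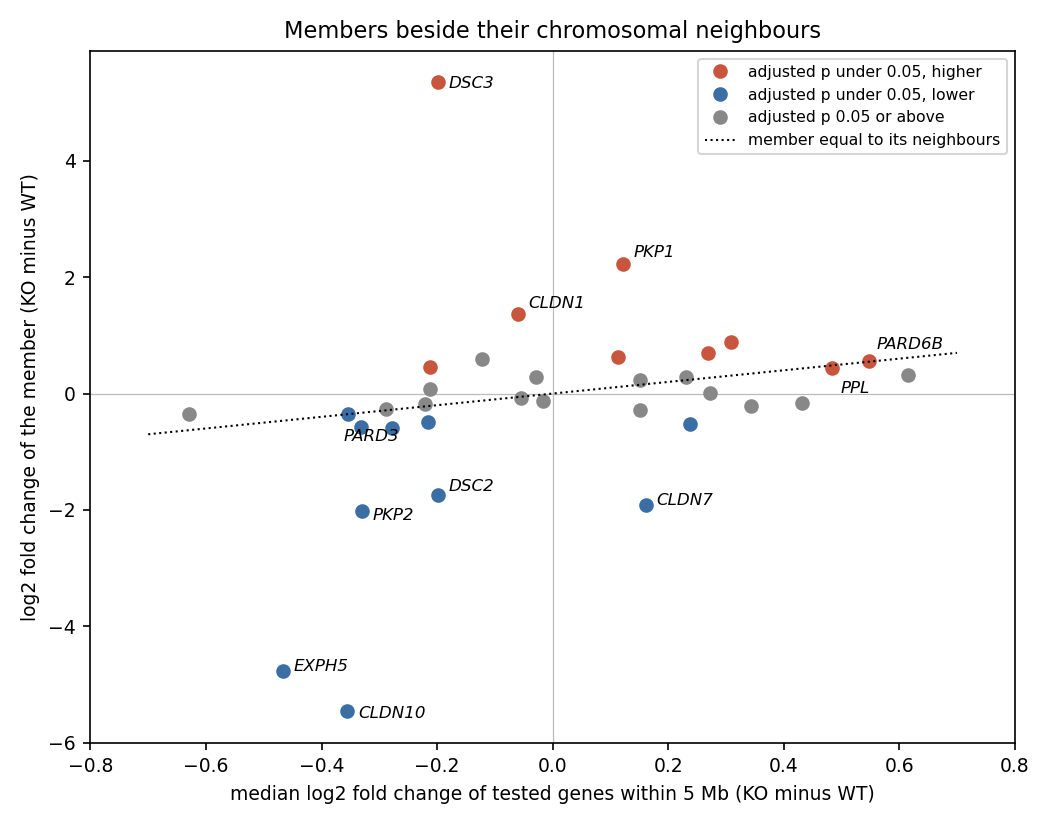
Log2 fold change of each tested member (vertical axis) against the median log2 fold change of tested non-member genes within 5 Mb (horizontal axis), both KO minus WT. The dotted line marks equal values. PARD3, PARD6B and PPL lie on or next to it. The 8 DEGs lie at least 1.42 away, a distance largely set by their limit of 1.2.

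Several members overlap other genes, and the strand setting of the counting is not given in the sources used here, so their values are uncertain to that extent. *CLDN7* overlaps *ELP5* on the opposite strand, which averaged 85.5 TPM in WT and 104.7 TPM in KO. *CLDN10* overlaps *DZIP1* and *CLDN10-AS1*, *DSC2* overlaps *DSCAS*, *DSG2* overlaps *DSG2-AS1* and *PKP2* overlaps *RPL35AP27*, all on the opposite strand. Opposite *TJP1* lies the pseudogene *HMGN2P5* (8.94 and 21.4 TPM), and *ESRP2* overlaps *NFATC3* (9.0 and 6.50 TPM). *CLDN12* shares its strand with *GTPBP10* and *CDK14*. No overlapping gene was listed for *CLDN1*, *CLDN4*, *DSC3*, *JUP*, *PKP1* or *EXPH5*.

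Beyond the members, 71 other junction genes were followed, of which 47 were tested, 14 called higher and 11 lower (53.2%, against 39.3% of all tested genes), with 6 DEGs (12.8%, against 8.66%). Their median log2 fold change was -0.01, and 0.03 over all tested genes. *CGNL1* and *TWIST2* among them passed the filter on low counts through the KO group only, and so had to differ in order to be tested. This list, too, was chosen with earlier results of these data known, and its shares are not independent of that choice. Leaving out WT replicate 2, WT replicate 3 or KO replicate 2 reduced the number called lower to 5, 5 and 4. Of the 6 DEGs, *PERP* and *ZEB1* stayed called with the GC offset but fell under the limit of 1.2 in size (-1.16 and -0.99). *ZEB1* was also under it without KO replicate 1 (-1.12). *PERP*, a membrane protein that desmosomes need, was higher in WT than any of the desmosome members, at 230.1, 244.3 and 240.6 TPM, and stood at 64.6, 69.5 and 82.6 TPM in KO. The groups were far apart, and *PERP* fell 2.98-fold (log2 fold change -1.58 ± 0.10; edgeR adjusted p = 1.28e-06). *DLG3*, a scaffold of the Dlg family of polarity proteins, was at 3.99, 4.03 and 4.47 TPM in WT and 1.5, 1.03 and 0.90 TPM in KO. It was lower in all KO samples (log2 fold change -1.72 ± 0.19; edgeR adjusted p = 6.42e-05). *CGNL1*, encoding paracingulin, was nearly absent in WT at 0.03, 0.05 and 0.01 TPM and stood at 0.16, 0.19 and 0.44 TPM in KO. The KO samples were all higher (3.08 ± 0.54; edgeR adjusted p = 0.00122), and the call was lost with limma-trend on log2(TPM + 1) (0.29, adjusted p = 0.0893, the highest over its alternatives).

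Classical cadherins and the repressors of epithelial genes gave a mixed picture. *CDH1*, encoding E-cadherin, was low in both groups, at 1.24, 1.42 and 2.11 TPM in WT and 0.42, 0.97 and 2.67 TPM in KO, which overlap (edgeR adjusted p = 0.307). *CDH2*, encoding N-cadherin, had 19.6, 19.3 and 19.2 TPM in WT and 1.08, 1.44 and 1.59 TPM in KO. All KO samples were far below WT, with a log2 fold change of -3.85 ± 0.14 (edgeR adjusted p = 9.73e-08). *CDH3*, encoding P-cadherin, stood at 0.69, 1.18 and 0.24 TPM in WT and 2.49, 2.06 and 1.78 TPM in KO. It was higher in every KO sample (log2 fold change 2.16 ± 0.35, edgeR adjusted p = 7.59e-04), with 2.77 without WT replicate 1. *EPCAM*, whose product binds claudin-7, was at 4.81, 3.91 and 3.80 TPM in WT and 1.70, 3.27 and 2.78 TPM in KO. All KO samples were lower (-0.67 ± 0.23; edgeR adjusted p = 0.0395), but the call was lost in 10 of 17 alternatives, among them leaving out any 1 library except KO replicate 3 (adjusted p up to 0.123). *ZEB1*, a repressor of *CDH1* and other epithelial genes that lies on chromosome 10, stood at 9.17, 9.57 and 9.81 TPM in WT and 2.75, 4.01 and 4.55 TPM in KO. Every KO value was lower (-1.27 ± 0.17; edgeR adjusted p = 2.04e-04). *TWIST2*, a transcription factor of mesenchymal cells, was at 0.46, 0.43 and 0.63 TPM in WT and 3.92, 2.60 and 2.61 TPM in KO. That was higher in all KO samples (2.77 ± 0.37; edgeR adjusted p = 2.65e-04). *SNAI1*, given after its values were seen, was at 8.11, 9.35 and 8.29 TPM in WT and 13.1, 10.6 and 10.99 TPM in KO. All KO samples were higher (0.59 ± 0.16, edgeR adjusted p = 0.0115), with 0.36 under the GC offset. The call was lost without WT replicate 1 and in the limma-trend fits (adjusted p = 0.0634, 0.0862 and 0.0797). It was also lost with the GC offset and a replicate block together (edgeR adjusted p = 0.0549). *ZEB2* and *SNAI2* were not called (edgeR adjusted p = 0.784 and 0.11).

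Markers of cell type were read in the same libraries. Of 8 epithelial and ductal markers, 7 were tested; *KRT8*, *KRT18* and *KRT19* were called higher and *EPCAM* and *SOX9* lower. The list summed to 1902, 1955 and 1995 TPM in WT and 3192, 3129 and 2710 TPM in KO, led by *KRT8*. Keratins 8 and 18 are the filaments that desmosomes anchor in simple epithelia: *KRT8* averaged 957 ± 27.2 TPM in WT and 1560 ± 171 TPM in KO. The 4 mesenchymal markers summed to 3776, 4241 and 4553 TPM in WT and 2824, 2541 and 2710 TPM in KO, led by *VIM*; *VIM*, *CDH2* and *ZEB1* were called lower and *FN1* higher. The *FN1* call rests on counts, with a log2 fold change of 2.70, while its TPM values overlapped between the groups (1.15, 1.53 and 2.06 in WT, 1.42, 1.95 and 3.76 in KO). Markers of acinar, islet, endothelial and fibroblast cells had at most 10 counts each in any library, as did *PTPRC* and *CD3E* of immune cells, while *CD68*, a lysosomal protein used as a macrophage marker, averaged 43.5 TPM in WT and 66.6 TPM in KO. The part of the keratin and mesenchymal differences in the junction results was not tested.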

How the data were processed

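Stranded mRNA libraries of 3 WT and 3 KO samples were sequenced and processed by the authors, with the hg38 build per the submitters' processing notes; the aligner, counter and annotation are not given in the sources used here. The authors deposited expected counts per gene, which are not normalized and not always whole (32.3% of nonzero values were not), and TPM, normalized within each library. The table also holds the authors' own comparison, which was not used.

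After rounding, the expected counts were tested in edgeR 4.0.16 (R 4.3.3; filterByExpr with a minimum count of 10, TMM, quasi-likelihood F test, Benjamini-Hochberg adjustment over 15179 genes). The study's methods give a fold change limit of 1.2 without naming a log scale; here it was applied to the log2 fold change. Levels were compared between genes in TPM. Positions came from GENCODE version 44 for 62625 of 62703 identifiers. Scripts were tested on simulated data. The alternatives were DESeq2 1.42.0, limma 3.58.1, other scalings and filters, a GC-content offset fitted in 40 bins, a replicate block, a linear limit of 1.2 and leaving out each library.

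Genes given in full were members called with a log2 fold change of at least 1.2 in size, the most abundant member of each class, compared pairs, other junction genes by the same limit, and *CDH1*, *EPCAM*, *ZEB1*, *ZEB2* and *SNAI2*; some genes the rule covers are not reported here. *CLDN12*, *CLDN15*, *OCLN*, *CGN*, *DSG2*, *PKP3*, *PKP4*, *DSP*, *LLGL2* and *CDH2* were picked for fuller values after these were seen. Members and lists were chosen with earlier results of these data known.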

Additional observations from a re-analysis of the deposited data

How the results depend on the processing

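Of the 19 called members, 10 kept their call in every alternative that gave a value, 9 lost it in 1 or more, and 0 changed direction; 8 uncalled members gained a call in the same direction in 1 or more. With limma-trend on log2(TPM + 1) and log2(TPM + 0.1), 4 and 4 members were called higher (9 in the main test), 8 and 9 other junction genes higher (14) and 7 and 7 lower (11); these fits moved the median of all genes to -0.08 and -0.11. Up-regulated members numbered 3 in the main test, 1 with a mean TPM of at least 1, which leaves fewer genes, 0 with limma-trend on log2(TPM + 1), where *CLDN1* stood at 1.18, and 10 with the limit of 1.2 on the linear scale, where 11 in place of 5 were down-regulated. Levels lay above all WT samples in all KO samples for 7 members in TPM (17.5% of all tested genes) and 11 in CPM scaled by TMM (26.2%), and below for 12 and 12 (26.7% and 25.7%). Leaving out 1 library gave 6 to 8 members higher, 7 to 12 lower, and 13 to 15 and 4 to 12 other junction genes. For counts in these alternative fits, the share of all tested genes called is not given here. Signs turned only for genes without a call in the main test. With the GC offset, alone and with the replicate block, log2 fold changes were 0.155 and 0.157 for *CLDN12*, 0.151 and 0.146 for *TJP1* and -0.357 and -0.351 for *EVPL*, and -0.006 for *TJP3* with the offset alone. In the limma fits they were -0.053 and -0.056 for *OCLN*, -0.177 and -0.197 for *EVPL*, and -0.094 and -0.12 for *ZEB2*. *EVPL* was at -0.006 with DESeq2 and with RLE, -0.071 with library size alone and -0.012 with a total count of at least 1. Leaving out 1 library gave -0.641 to 0.048 for *CLDN23*, -0.147 to 0.17 for *OCLN*, -0.092 to 0.689 for *TJP3*, -0.162 to 0.085 for *EVPL* and -0.177 to 0.252 for *ZEB2*. The cause was not tested. Same-numbered samples correlated at -0.123, -0.074 and -0.109 in their deviations from the group means, so no pairing by number was detected. The labels do not say whether these samples were prepared together. With the replicate block, 8 members were called higher and 9 lower, 3 up- and 5 down-regulated, and 14 and 8 other junction genes. Of the 15 members with at most 9 counts per library, the fit with a total count of at least 1 took in 14 and called 0 (lowest adjusted p 0.357).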
